A study of Caenorhabditis elegans with 36 samples.

Results

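The microRNA genes of Caenorhabditis elegans outside the let-7 family, mir-237 and the mir-35 to mir-42 genes were followed through adult and embryo small RNA libraries of nip mutants. They were taken by symbol, as every gene named mir or cel-mir plus lsy-6, with mir-260 and mir-8199 included and the 15 genes of the named exceptions left out. This gave 241 of 256 microRNA genes, all 241 in the embryo tables of 46740 features and 189 in the adult table of 31003 features.

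MicroRNAs are cut from hairpin transcripts by Drosha and Dicer and loaded into the Argonautes ALG-1 and ALG-2, which pair them through a short seed near their 5′ end with messenger RNAs that are then repressed. MicroRNAs with the same seed form families whose members can cover for one another. NRDE-3 is another kind of Argonaute: it carries 22G-RNAs, antisense to their targets and copied from them by RNA-dependent RNA polymerases, into the nuclei of somatic cells.

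The series examines candidate factors in the inheritance of gene silencing across generations. The adult groups were whole animals of nip2nip3 (3 libraries), nip3_qe17 (3 libraries) and wt (2 libraries, numbered 1 and 3). Their titles carry YA, read here as young adult. The embryo groups were early embryos of mixed stages carrying FLAG-tagged NRDE-3, in nipnip2 and wt, with 2 libraries each of the anti-FLAG immunoprecipitate (IP) and of the input. For 1 wt input library the labels name whole animals and no tag. All worms were grown at 20 °C on HB101 bacteria, and the libraries came from a 5′-independent protocol, which also captures small RNAs with a 5′ triphosphate such as 22G-RNAs. Whether replicates were grown as separate cultures is not stated, and the p-values cover only the spread between these libraries, which may be technical.

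Counts assigned to genes ranged from 6362077 to 10962202 per adult library, 1149366 to 2200655 per embryo input and 2957435 to 5956980 per IP. The files give counts per annotated gene, without read lengths or positions, so every small RNA read assigned to a microRNA locus is counted, whether or not it is the mature microRNA. The strand setting is not given in the sources used here, and for 15 of the 114 members with a mean of at least 20 adult counts another gene had identical counts throughout, most often an overlapping noncoding RNA. The pairs mir-80 and K01F9.6, mir-52 and Y37A1B.335, and mir-46 and ZK525.4 were of this kind, and the reads of each pair cannot be told apart.

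A RefSeq locus of the WBcel235 assembly, which ce11 names, was matched by symbol for 232 members and for the remaining 9 none was matched. The X chromosome held 65 of them, chromosome IV 47, chromosome II 38, chromosome I 30, chromosome III 27 and chromosome V 25. The median locus was 96 bp long. The locus of mir-8199 was 778 bp long and the next longest was 262 bp. Of the loci, 94 overlapped a protein-coding gene, 36 overlapped other genes only and 102 overlapped no gene other than a microRNA, and 78 lay within 10 kb of another member.

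The members took a far larger share of the adult counts than of the embryo counts. In adults they held 21.9%, 21.2% and 21.5% of the library in nip2nip3, 21.1%, 20.9% and 20.4% in nip3_qe17, and 18.7% and 18.5% in wt. Every library of both mutants was above both wt libraries. In the NRDE-3 IP they held 2.83% and 3.0% in nipnip2 and 2.66% and 4.35% in wt, and in the input 0.577% and 0.750% in nipnip2 and 1.35% and 1.20% in wt. The input groups did not overlap, with nipnip2 lower, while the IP groups did. Stage, table and library set cannot be told apart, so adults and embryos were not tested against each other.

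**Figure D1:**
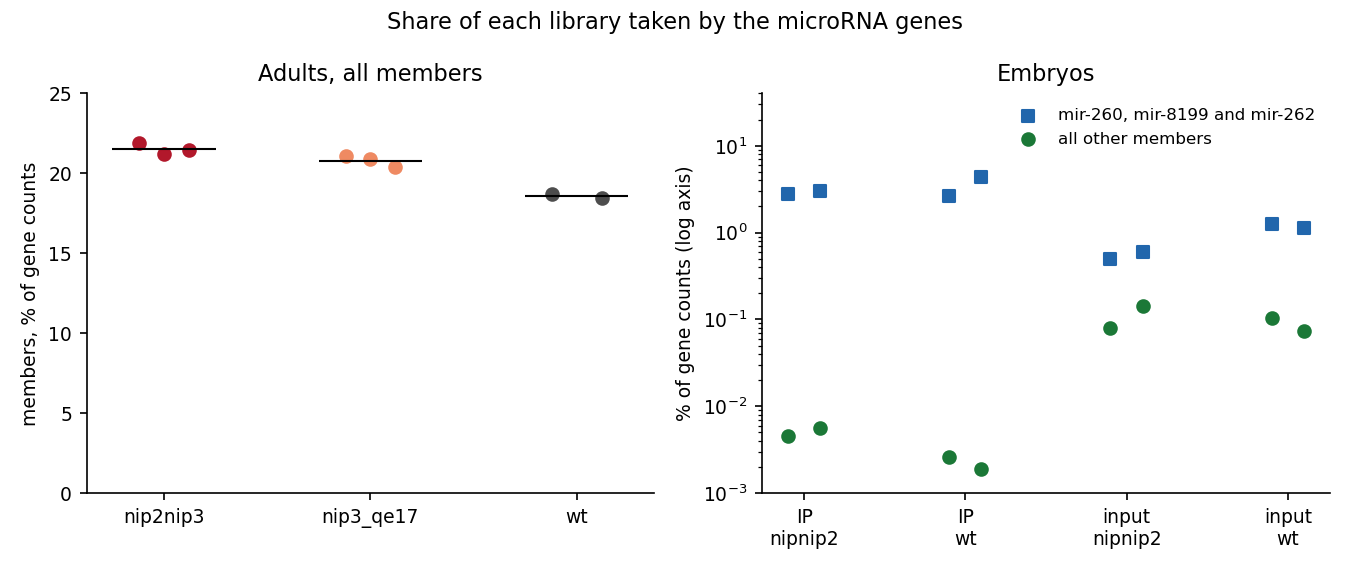
Share of each library's counts assigned to the member microRNA genes, in percent, with 1 point per library and the groups along the x axis. The adult axis starts at 0 with lines at the means, and the embryo axis is a log axis on which mir-260, mir-8199 and mir-262 together (squares) are set apart from all other members (circles). All adult libraries lie between 18.5% and 21.9%, and without those 3 genes the IP libraries lie at 0.00191% to 0.00568%.

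Detection followed the same division. Of 189 members in the adult table, 149 had at least 1 count in every library, 114 had a mean of at least 20 counts, and 54 had a mean of at least 1000. None of the 189 was at 0 in every adult library. Whether the members missing from the adult table had no counts there is not known, so the adult and embryo numbers have unlike bases. In the embryo input 48 of 241 had a count in every library and 148 were at 0 in all 4, and in the IP 22 had a count in every library and 179 were at 0 in all 4. A count of 0 over both libraries of a group allows a level of up to 1.01 CPM (counts scaled to a common library size of 1e6) in nipnip2 and 0.704 CPM in wt input, and up to 0.467 CPM in nipnip2 and 0.287 CPM in wt IP, for counting error only. Members numbered 1000 and above made up 123 of the 241 and 83 of the 189 in the adult table. They were only 20 of the 114 with a mean of at least 20 adult counts and 2 of the 54 with a mean of at least 1000.

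In adults a single family led. The mir-58 family, which shares the seed of the fly microRNA bantam and is known for control of body size and TGF-beta signalling, held 64.6% ± 1.79 of the member counts in nip2nip3, 65.4% ± 0.297 in nip3_qe17 (SD, n = 3 each) and 59.2% ± 0.142 in wt (SD, n = 2). The members mir-58a, mir-82 and mir-80 of that family together made 61.1% of all adult member counts. By its share of counts mir-58a ranked first of all genes in nip2nip3, 2nd in nip3_qe17 and first in wt. The mir-51 family, which is required for embryonic development and attachment of the pharynx, came next with 6.97% ± 1.24 in nip2nip3, 7.07% ± 2.10 in nip3_qe17 and 8.62% ± 1.09 in wt. The mir-72 family held 2.12% ± 0.122 in nip2nip3, 1.85% ± 0.0839 in nip3_qe17 and 1.94% ± 0.617 in wt.

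Levels below are CPM normalised with TMM factors, which centre the typical gene between libraries. The loci of the 15 members with the highest adult levels were 96 to 108 bp long, so their levels can be set side by side nearly per length. mir-58a (chromosome IV, 3233254 to 3233350, within phkb-1) had 71562, 53373 and 56403 CPM in nip2nip3, 44392, 52824 and 45349 in nip3_qe17, and 44283 and 31990 in wt. mir-82 (chromosome X, 2435258 to 2435354, within gid-2) had 32433, 45932 and 44764 CPM in nip2nip3, 46663, 48099 and 53834 in nip3_qe17, and 28428 and 35288 in wt. mir-80 (chromosome III, 8865270 to 8865367) had 54008, 35918 and 37229 CPM in nip2nip3, 56213, 32397 and 27166 in nip3_qe17, and 20924 and 20008 in wt. The ranges of mir-82 and mir-80 overlapped in both mutants, and mir-80 was the lower of the pair in both wt libraries. In both mutants the library numbered 1 was the highest for mir-80.

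mir-228, which acts in glia, followed with 16266, 12860 and 20021 CPM in nip2nip3, 17951, 18176 and 16743 in nip3_qe17, and 11995 and 13472 in wt. mir-52 of the mir-51 family averaged 7352 ± 2549 CPM in nip2nip3, 7636 ± 3566 in nip3_qe17 and 4511 ± 22.9 in wt (SD, n = 3, 3 and 2). Below it, mir-54, mir-81, mir-85, mir-72, mir-246, mir-57, mir-90, mir-70, mir-45 and mir-44 followed, and neighbours in this order overlapped in nip2nip3.

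**Figure D2:**
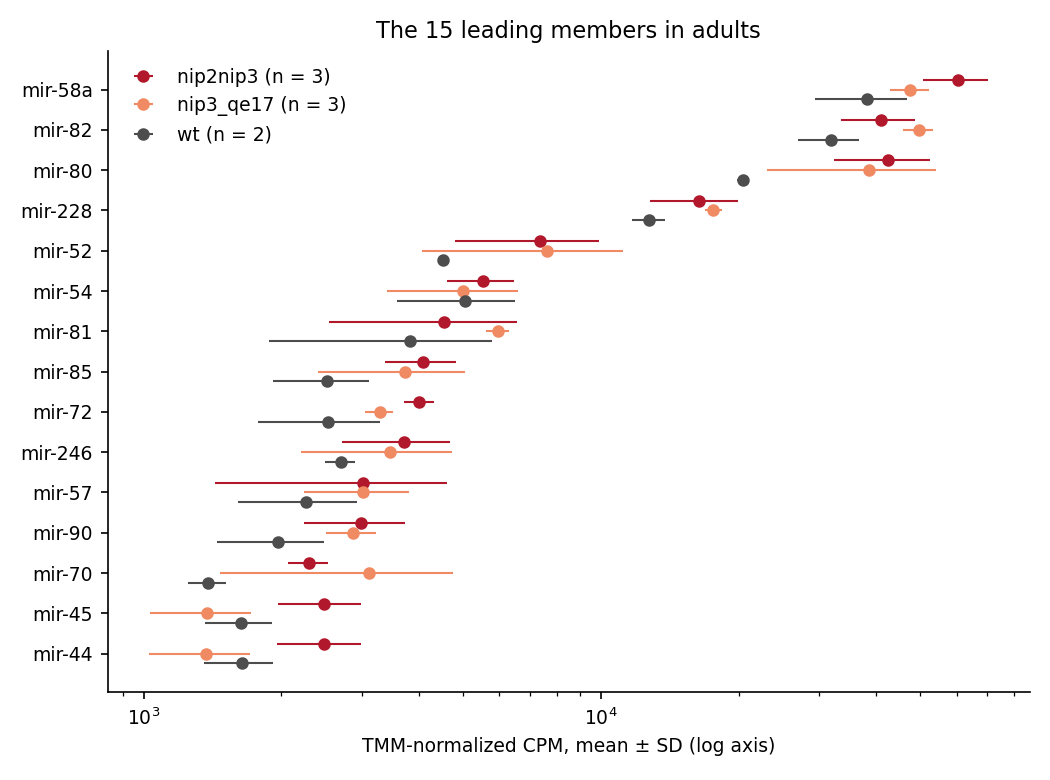
Normalised CPM of the 15 leading adult members on a log axis, as mean and SD over the libraries of nip2nip3 (n = 3), nip3_qe17 (n = 3) and wt (n = 2). mir-58a, mir-82 and mir-80 lie above all others.

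Relative to the typical gene, more members were higher than lower in both adult mutants. In edgeR's quasi-likelihood test with Benjamini-Hochberg adjustment over all genes, at an adjusted p under 0.05, 48 of the 138 members that passed the filter were higher and 5 lower in nip2nip3 than in wt. The filter keeps genes with enough counts in at least the smallest group, and the other members were not tested. Of all genes tested 43.2% were called there, 21.9% as higher and 21.3% as lower. In nip3_qe17 against wt, 27 members were higher and 10 lower of 138, with 37% of all genes called, 17.8% as higher and 19.1% as lower. The median log2 fold change of the members was 0.55 in nip2nip3 and 0.31 in nip3_qe17, against 0.05 and 0.01 over all genes tested. The share of members called was not above the background in either comparison, and it was the balance of directions that departed from it. The comparisons share the wt libraries. Groups without overlap were common. By normalised CPM, 63 members were above wt in every nip2nip3 library and 7 below, against 5642 and 5414 of all 16585 genes. In nip3_qe17 these were 44 and 20 members, against 4711 and 5082 genes. Between the mutants 26 members were higher and 7 lower in every nip2nip3 library, against 2123 and 1928 genes. In bulk libraries of whole animals, fewer cells of a type and less RNA per cell cannot be told apart.

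That balance depends on the scale. With libraries scaled to their totals, the median of all genes moved to -0.27 in nip2nip3 and -0.26 in nip3_qe17, and 12 members were higher and 11 lower in nip2nip3 and 6 higher and 19 lower in nip3_qe17. Over all genes 2234 were then higher and 5955 lower in nip2nip3, and 1834 higher and 5045 lower in nip3_qe17. With libraries scaled to the summed member counts, the calls were 7 higher and 13 lower in nip2nip3 and 4 higher and 29 lower in nip3_qe17, where over all genes 1575 were higher and 7215 lower in nip2nip3 and 1431 higher and 6486 lower in nip3_qe17. The gap between the members' median and that of all genes was 0.50 to 0.51 in nip2nip3 and 0.30 in nip3_qe17 under each of these scalings. A change of scale moves all genes by nearly the same amount, so it could hardly have altered this gap. Called in the same direction under all 3 scalings were 12 members for nip2nip3, 7 higher and 5 lower, and 14 for nip3_qe17, 4 higher and 10 lower. The matching counts over all genes were not taken.

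**Figure D3:**
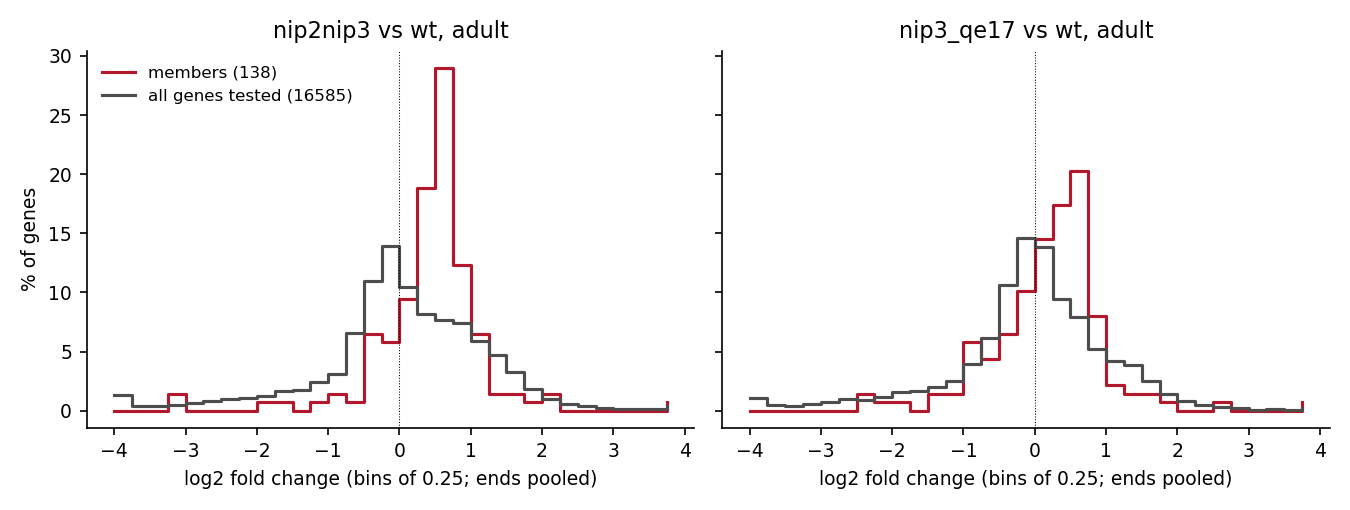
Distribution of log2 fold changes of the members and of all genes tested, as a share of each set per bin, for nip2nip3 against wt and nip3_qe17 against wt. The members' distributions are narrower and centred at 0.55 and 0.31, while those of all genes are centred at 0.05 and 0.01.

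Both mutants moved other RNA in these libraries too, where 43.2% and 37% of all genes were called. Of 3468 21U-RNA (piRNA) loci tested, 944 were higher and 56 lower in nip2nip3, and 361 higher and 157 lower in nip3_qe17. Their median log2 fold changes were 0.66 and 0.23. Of 120 snoRNA genes, 22 were higher and 6 lower in nip2nip3, and 23 and 6 in nip3_qe17, with medians of 0.36 and 0.46. The medians of snRNA genes were -0.004 and -0.45. All 30 major sperm protein genes tested, which mark sperm, were higher in both mutants, and their summed share was 0.0400%, 0.0497% and 0.0451% in nip2nip3, 0.0377%, 0.0376% and 0.0421% in nip3_qe17, and 0.0152% and 0.0190% in wt. The nip3_qe17 library numbered 1 had 4.68% of its counts on rRNA, against 0.864% to 2.34% in the other adult libraries. The part of any of these in the results on microRNAs was not tested.

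The largest fall of a member in adults was that of mir-258.2, in both mutants. Its symbol is given to 2 identifiers, WBGene00003352 and WBGene00043991, with the same fractional counts in every library, so both make up 2 of the 5 and 2 of the 10 lower calls. Each had 395, 314 and 304 CPM in nip2nip3, 687, 484 and 536 in nip3_qe17, and 3324 and 2614 in wt. All mutant libraries were far below both wt libraries, and those of nip2nip3 were below those of nip3_qe17. The log2 fold change was -3.14 (SE 0.18, adjusted p = 4.93e-07, edgeR) in nip2nip3 and -2.38 (SE 0.18, adjusted p = 3.69e-06) in nip3_qe17. Between the mutants it was -0.75 (SE 0.16, adjusted p = 0.0277). By share of counts mir-258.2 ranked 326th of all genes in nip2nip3, 206th in nip3_qe17 and 21st in wt. Leaving out any single library kept the 2 calls against wt, at -3.30 to -2.96 and -2.54 to -2.20, while the call between mutants was lost in 4 of 6 such fits.

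Another 3 members were lower in both mutants under every scaling. mir-8196b (chromosome X, 14324355 to 14324517, over prx-1) had 4.15, 4.92 and 5.19 CPM in nip2nip3, 5.59, 4.34 and 3.19 in nip3_qe17, and 16.2 and 20.7 in wt, with log2 fold changes of -1.94 (SE 0.23) and -2.11 (SE 0.23). Its namesake mir-8196a (chromosome X, 2328994 to 2329124, over linc-154) had 5.43, 6.80 and 8.55 CPM in nip2nip3, 5.59, 6.70 and 5.02 in nip3_qe17, and 11.7 and 17.3 in wt. Its log2 fold changes were -1.05 and -1.33, and the call in nip2nip3 was lost without wt library 3. mir-257 (chromosome V, 17140668 to 17140769) had 3.83, 4.63 and 5.09 CPM in nip2nip3, 8.56, 8.78 and 6.29 in nip3_qe17, and 13.4 and 14.3 in wt, with log2 fold changes of -1.60 (SE 0.21) and -0.82 (SE 0.20). In all 3 genes every mutant library was below every wt library. Of all 16585 genes, 5414 were so in nip2nip3 and 5082 in nip3_qe17. The mir-257 call in nip3_qe17 was lost without wt library 3.

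The adult levels of the 3 loci that lead in embryos were modest. mir-260 had 99.8, 78.5 and 88.9 CPM in nip2nip3, 76.5, 85.3 and 101 in nip3_qe17, and 83.7 and 65.4 in wt, and was not called in either mutant. mir-262 had 114, 145 and 149 CPM in nip2nip3, 96.7, 136 and 155 in nip3_qe17, and 74.9 and 95.8 in wt. Its log2 fold changes of 0.67 (SE 0.20, adjusted p = 0.0218, edgeR) and 0.60 (SE 0.20, adjusted p = 0.0376) were called, but with library totals neither was, and each was lost in 3 of 5 fits without 1 library. mir-8199 had 5.91, 9.69 and 9.67 CPM in nip2nip3, 7.68, 5.29 and 6.75 in nip3_qe17, and 16.6 and 7.24 in wt, with overlap of both mutants and wt and no call.

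mir-790 (chromosome IV, 5566422 to 5566491, over the piRNA locus 21ur-1430) varied within groups. It had 53.3, 18.7 and 57.4 CPM in nip2nip3, 11.4, 28.9 and 21.9 in nip3_qe17, and 97.0 and 55.7 in wt. Its log2 fold change was -1.84 (SE 0.44, adjusted p = 0.00807, edgeR) in nip3_qe17, a call lost without wt library 1, and -0.82 (SE 0.43, adjusted p = 0.152) in nip2nip3. The nip3_qe17 libraries were all below the wt libraries, while nip2nip3 overlapped wt.

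Among members called as higher with a mean of at least 20 counts, mir-239b (chromosome X, 11791302 to 11791399), a microRNA known for effects on stress resistance and lifespan, had the largest log2 fold change in nip2nip3. It had 791, 1224 and 933 CPM in nip2nip3, 193, 563 and 531 in nip3_qe17, and 190 and 268 in wt. The nip2nip3 libraries were above all others, and nip3_qe17 overlapped wt. The log2 fold change was 2.10 (SE 0.41, adjusted p = 0.00222, edgeR) in nip2nip3 and 0.91 (SE 0.39, adjusted p = 0.091) in nip3_qe17. Its neighbour and family member mir-239a (chromosome X, 11792445 to 11792542) had 380, 320 and 238 CPM in nip2nip3, 108, 177 and 152 in nip3_qe17, and 188 and 189 in wt. Here nip2nip3 was above wt in every library, with a log2 fold change of 0.73 (SE 0.22), and nip3_qe17 was below it in every library, at -0.37 (SE 0.22, adjusted p = 0.211). The call in nip2nip3 was lost in 4 of 5 fits without 1 library.

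mir-62 (chromosome X, 12692608 to 12692665, within ugt-50) is a mirtron, whose hairpin is a spliced intron and bypasses Drosha. It had 65.3, 65.2 and 44.2 CPM in nip2nip3, 19.2, 25.8 and 20.3 in nip3_qe17, and 21.2 and 18.9 in wt. Every nip2nip3 library exceeded every library of the other groups, which overlapped. The log2 fold change against wt was 1.53 (SE 0.20, adjusted p = 0.000157, edgeR) in nip2nip3 and 0.13 (SE 0.20, adjusted p = 0.648) in nip3_qe17. The other mirtrons tested, mir-1018 and mir-1020, were not called in either mutant, with 15.5 ± 4.90 and 4.55 ± 1.97 CPM in nip2nip3, 16.5 ± 1.40 and 3.62 ± 0.759 in nip3_qe17, and 9.84 ± 3.10 and 3.61 ± 1.67 in wt.

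mir-798 (chromosome IV, 14277312 to 14277387, within ilcr-1) had 65.1, 31.8 and 26.2 CPM in nip2nip3, 3.67, 10.8 and 5.75 in nip3_qe17, and 13.5 and 11.2 in wt. All nip2nip3 libraries were above wt and all nip3_qe17 libraries below it. The log2 fold change was 1.72 (SE 0.43, adjusted p = 0.00962, edgeR) in nip2nip3, a call lost without wt library 3, and -0.82 (SE 0.46, adjusted p = 0.19) in nip3_qe17.

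Of the 21 members called as higher in both mutants, mir-59 and mir-2212 were among those called in every fit without 1 library. mir-59 (chromosome IV, 11309154 to 11309253) had 1019, 1144 and 960 CPM in nip2nip3, 727, 875 and 792 in nip3_qe17, and 486 and 514 in wt. The groups stood in that order with no overlap, and the log2 fold changes were 1.06 (SE 0.13, adjusted p = 0.0001, edgeR) and 0.67 (SE 0.13, adjusted p = 0.00194). Scaled to library totals mir-59 was still called in nip2nip3, at 0.75. mir-2212 (chromosome X, 16207829 to 16207888) had 14.5, 19.8 and 19.5 CPM in nip2nip3, 19.2, 16.7 and 21.8 in nip3_qe17, and 6.38 and 8.64 in wt, with log2 fold changes of 1.26 (SE 0.21) and 1.35 (SE 0.21). Its mutant groups overlapped each other and were both above wt.

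mir-79, which shares a seed with mir-75, had 115, 91.4 and 92.9 CPM in nip2nip3, 120, 146 and 92.0 in nip3_qe17, and 62.8 and 41.2 in wt. Its log2 fold changes were 0.94 (SE 0.22) in nip2nip3 and 1.20 (SE 0.22) in nip3_qe17. mir-75 had log2 fold changes of 0.65 (SE 0.12) and 0.59 (SE 0.12), and mir-252 of 1.16 (SE 0.22) and 0.69 (SE 0.22). The call of mir-79 in nip2nip3 was lost without wt library 3, and that of mir-252 in nip3_qe17 without either wt library or nip3_qe17 library 1. mir-252 in nip2nip3 and mir-79 in nip3_qe17 were also called under each other scaling.

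Other calls were lost in several fits without 1 library. mir-789-2 averaged 35.8 ± 12.6 CPM in nip2nip3, 36.7 ± 3.66 in nip3_qe17 and 13.3 ± 11.9 in wt, with log2 fold changes of 1.42 (SE 0.47) and 1.45 (SE 0.47) that ranged from 0.72 to 2.89 and from 0.76 to 2.92 with 1 library left out. mir-797 was called in nip2nip3 at 1.14 (SE 0.41), and mir-2209a of the mir-58 family and mir-1830 in nip3_qe17 at 0.86 (SE 0.31) and 0.85 (SE 0.26). The calls of mir-797 and mir-1830 held in 1 of 5 fits without 1 library, and that of mir-2209a in 0 of 5.

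**Figure D4:**
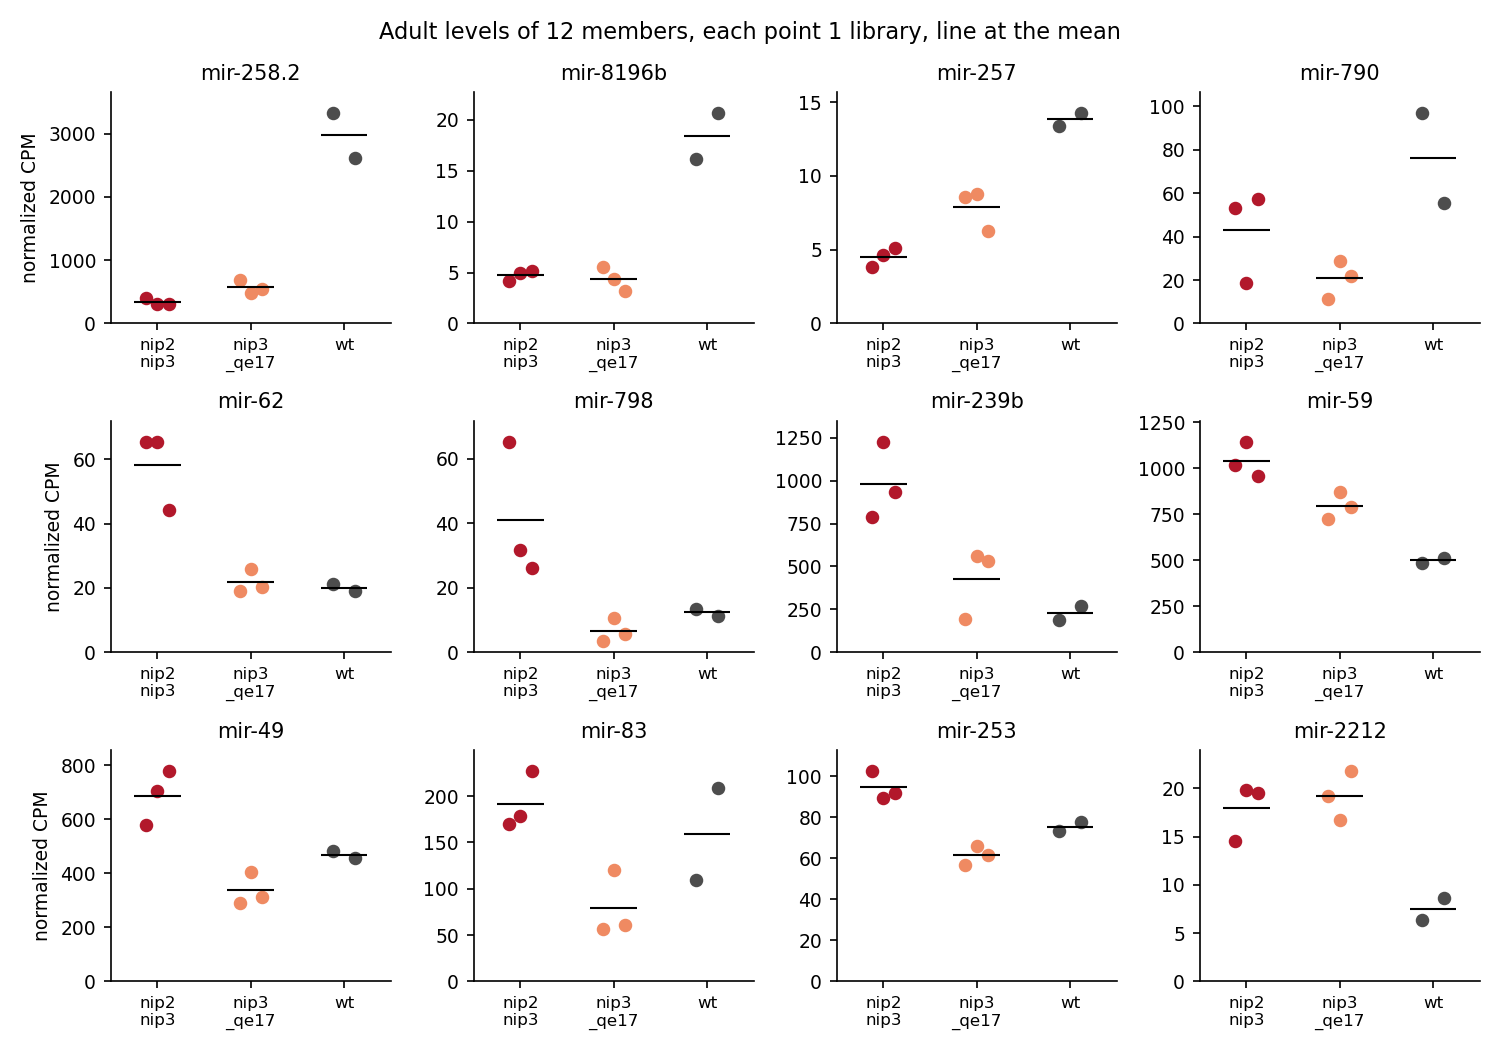
Normalised CPM of 12 members, 1 panel per gene, with axes from 0, 1 point per library and a line at the mean for nip2nip3, nip3_qe17 and wt. mir-258.2, mir-8196b and mir-257 lie below wt in both mutants, mir-62, mir-798 and mir-239b are highest in nip2nip3, and mir-83 is lowest in 2 nip3_qe17 libraries.

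Among the abundant members mir-80 had a log2 fold change of 1.05 (SE 0.29, adjusted p = 0.0155, edgeR) in nip2nip3 and of 0.92 (SE 0.29, adjusted p = 0.0313) in nip3_qe17. The mir-80 call in nip2nip3 was lost without either wt library, that in nip3_qe17 without either wt library or nip3_qe17 library 1, and scaled to library totals only that in nip2nip3 held. mir-58a was called in nip2nip3 at 0.66 (SE 0.18, adjusted p = 0.0143) but not without wt library 3, and stood at 0.32 (SE 0.18, adjusted p = 0.198) in nip3_qe17. mir-82 was called in nip3_qe17 at 0.64 (SE 0.17, adjusted p = 0.0162) but not without wt library 1 or nip3_qe17 library 3, and stood at 0.37 (SE 0.17, adjusted p = 0.113) in nip2nip3. With library totals as the scale neither mir-58a nor mir-82 was called. mir-70 was called in nip3_qe17 at 1.17 (SE 0.33), where library 1 had 4989 CPM and the others 2250 and 2074, against 1477 and 1290 in wt, and the call was lost without either wt library.

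By family, 21 of the 50 tested members on the family lists were called in nip2nip3, each of them higher, and 11 were higher and 3 lower in nip3_qe17, where 43.2% and 37% of all genes were called. Of the mir-58 family 2 of 6 tested were higher in nip2nip3 and 3 of 6 in nip3_qe17. Of the mir-51 family only mir-53 was called, in nip2nip3, at 0.81 (SE 0.28, adjusted p = 0.0371, edgeR), and not without either wt library or nip2nip3 library 1. mir-51, mir-55 and mir-56 of that family had log2 fold changes of -0.43, -0.48 and -0.85 in nip2nip3 and of -0.62, -0.79 and -0.60 in nip3_qe17, none of them called. Both mir-46 and mir-47 were higher in nip2nip3, although mir-47 stood at -0.05 when scaled to the summed member counts, and both mir-49 and mir-83 were called as lower in nip3_qe17. The mir-83 call ranged from -1.43 to -0.45 with 1 library left out and was lost in 3 of 5 such fits, and that of mir-49 was lost in 4 of 5.

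Members known from a tissue or process were counted as a list. Of 15 tested, 1 was called in each mutant, namely mir-34 as higher in nip2nip3 and mir-70 as higher in nip3_qe17, with 4 at an unadjusted p under 0.05 in each, where 43.2% and 37% of all genes were called. The list's median log2 fold change was 0.40 in nip2nip3 and 0.36 in nip3_qe17. mir-34, a conserved microRNA of the DNA damage response, had 127, 119 and 120 CPM in nip2nip3, 102, 95.3 and 84.1 in nip3_qe17, and 86.5 and 86.0 in wt, with a log2 fold change of 0.50 (SE 0.11, adjusted p = 0.0036) in nip2nip3 that was -0.03 when scaled to the summed member counts. The muscle microRNA mir-1 averaged 331 ± 179 CPM in nip2nip3, 260 ± 39.9 in nip3_qe17 and 251 ± 139 in wt. The neuronal mir-124 averaged 5.53 ± 2.02, 5.98 ± 0.63 and 3.51 ± 0.816 CPM in the same groups, lsy-6 of the left taste neuron ASEL 2.16 ± 0.353, 2.24 ± 1.09 and 1.95 ± 0.0511, and the intestinal mir-60 643 ± 18.4, 816 ± 119 and 582 ± 319. None of these 4 was called. For mir-124 every nip3_qe17 library was above both wt libraries.

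Members numbered under 1000 and those numbered higher were also counted apart. In nip2nip3, 40 of 102 tested under 1000 were higher and 3 lower, with a median log2 fold change of 0.58, and 8 of 36 numbered 1000 and above were higher and 2 lower, with a median of 0.38. In nip3_qe17 the counts were 17 higher and 8 lower of 102, and 10 higher and 2 lower of 36. Of all genes 43.2% were called in nip2nip3 and 37% in nip3_qe17. Members on X had medians of 0.50 in nip2nip3 and 0.19 in nip3_qe17, and members on autosomes 0.58 and 0.35. Protein-coding genes on X had medians of -1.15 and -1.19 in the same libraries, against -0.13 and -0.03 on autosomes.

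Set directly against each other, the mutants differed in 15 of 138 members, 12 higher and 3 lower in nip2nip3 than in nip3_qe17, against 4.19% of all genes called, 2.72% as higher and 1.47% as lower. Of these, 11 held under all 3 scalings, 8 of them higher and 3 lower, a count not taken over all genes. mir-62 differed by 1.40 (SE 0.17, adjusted p = 0.000847, edgeR) and mir-798 by 2.54 (SE 0.40, adjusted p = 0.00454). mir-49 (chromosome X, 9989282 to 9989378) had 581, 704 and 779 CPM in nip2nip3, 290, 407 and 313 in nip3_qe17, and 484 and 456 in wt, and differed by 1.03 (SE 0.15, adjusted p = 0.00296). Its mutant groups lay on either side of wt. mir-49, mir-62 and mir-798 were called in all 6 fits without 1 library.

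mir-83 (chromosome IV, 7841631 to 7841728, over C06A6.9) shares the seed of the mir-29 family with mir-49 and is known for gonad migration together with mir-34. It had 170, 179 and 227 CPM in nip2nip3, 57.1, 120 and 61.1 in nip3_qe17, and 110 and 208 in wt. nip2nip3 was above nip3_qe17 in every library and overlapped wt. The difference of 1.27 (SE 0.30, adjusted p = 0.0431, edgeR) held in only 1 of 6 fits without 1 library. mir-44 and mir-45 both differed by 0.85 (SE 0.20, adjusted p = 0.0447) between the mutants, with 3068, 2210 and 2145 CPM of mir-44 in nip2nip3 and 987, 1636 and 1484 in nip3_qe17. The mir-44 call held in 1 of 6 fits without 1 library. The counts of both were nearly the same, and reads of the 2 genes cannot be told apart.

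Of members called in either adult mutant against wt, 21 were higher in both, 5 were lower in both and 2 were called in opposite directions, out of 62, in comparisons that share the wt libraries. The 5 include both identifiers of mir-258.2. Of all genes 43.2% were called in nip2nip3 and 37% in nip3_qe17, and calls shared by the mutants were not counted over all genes. The opposite calls were mir-49, at 0.55 (SE 0.17) in nip2nip3 and -0.48 (SE 0.16) in nip3_qe17, and mir-253, named here after its values were seen, at 0.33 (SE 0.10) and -0.29 (SE 0.10). mir-253 had 103, 89.4 and 92.1 CPM in nip2nip3, 56.6, 65.9 and 61.8 in nip3_qe17, and 73.4 and 77.6 in wt, so that neither mutant overlapped wt. Both calls of mir-49 against wt were lost in 4 of 5 fits without 1 library.

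Genes of the microRNA pathway appear in these libraries as sources of small RNA, not as messenger RNA. Of 17 tested in adults with TMM factors, 2 had more small RNA counts and 5 fewer in nip2nip3 than in wt, and 3 more and 3 fewer in nip3_qe17, where 43.2% and 37% of all genes were called. dcap-2, a decapping enzyme, had a log2 fold change of 1.02 in nip2nip3, and ebax-1, a ubiquitin ligase receptor, of 1.11 in nip2nip3 and 1.35 in nip3_qe17. ain-1, a GW182 protein of the silencing complex, had -0.97 in nip2nip3 and -1.28 in nip3_qe17, and paxt-1, which stabilises the exonuclease XRN-2, had -0.72 and -0.64. Of the Argonaute genes alg-2 was called in nip2nip3, at -0.65, alg-1 in nip3_qe17, at -0.70, and alg-5 in neither. Between the mutants only dcap-2 was called, at 0.60.

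In embryos 3 loci made up nearly all member counts: mir-260, mir-8199 and mir-262 held 99.9% of them in the IP and 88.3% in the input. mir-260 (WBGene00003354) lies on chromosome II at 3306234 to 3306336 inside the pseudogene F39E9.7 and 2 noncoding RNA genes. mir-8199 (WBGene00016553) lies on chromosome II at 2136552 to 2137329 and overlaps no other gene. mir-262 (WBGene00003356) lies on chromosome V at 18736683 to 18736790 in the noncoding RNA gene ZK384.7. Without these loci the members held 0.00458% and 0.00568% of the IP libraries of nipnip2 and 0.00259% and 0.00191% of those of wt, and 0.0798% and 0.144% of the input libraries of nipnip2 and 0.103% and 0.0734% of those of wt.

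In the IP mir-260 had 70710 and 67443 counts in nipnip2 and 79168 and 210211 in wt, which was 2.04% and 2.28% of the libraries in nipnip2 and 1.75% and 3.53% in wt. In the input mir-260 had 6537 and 5091 counts in nipnip2 and 18689 and 17391 in wt, or 0.358% and 0.443% against 0.907% and 0.790%. By share it ranked 12th of all genes in the IP of nipnip2 and 9th in that of wt, and 29th and 19th in the inputs. The IP shares overlapped between genotypes, while both nipnip2 inputs were below both wt inputs.

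mir-8199 took 0.777% and 0.708% of the IP in nipnip2 and 0.871% and 0.784% in wt, and 0.138% and 0.162% of the input in nipnip2 and 0.335% and 0.336% in wt. Per 100 bp of locus mir-8199 stood far below mir-260, with 491 normalised CPM in the IP of nipnip2 and 2063 in that of wt, where mir-260 had 10820 and 50362. mir-262 had 229 and 202 counts in the IP of nipnip2 and 1345 and 1894 in that of wt, and 12 and 21 counts in the input of nipnip2 and 194 and 99 in that of wt. For mir-262 the nipnip2 libraries were the lower ones in both fractions, with no overlap. By normalised CPM, 2092 of all 8505 genes tested were lower without overlap in the input, and 801 of 2619 in the IP.

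In the input these 3 members were the lower calls in nipnip2 against wt and no member was higher, of 22 tested, with 6.38% of all genes called, 1.28% as higher and 5.1% as lower. mir-260 had a log2 fold change of -1.64 (SE 0.25, adjusted p = 0.00508, edgeR), mir-8199 of -1.73 (SE 0.22, adjusted p = 0.00255) and mir-262 of -3.16 (SE 0.49, adjusted p = 0.0061). Scaled to library totals, which moved the median of all genes to 0.58, the 3 stood at -1.08, -1.16 and -2.58 and were still called. Scaled to the summed member counts, which these loci dominate, mir-260 and mir-8199 stood at -0.13 and -0.21 and were not called, and mir-262 stood at -1.60 and was. Scaled to the other members, a choice made after the data were seen, none of the 3 was called by edgeR (adjusted p = 0.484, 0.663 and 0.117). Of the other 19 members tested 0 were called by edgeR, with 3 at an unadjusted p under 0.05, and 0 by DESeq2.

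In the IP the size of the difference turned on the scale. With TMM factors mir-260, mir-8199 and mir-262 were the 3 lower calls of 7 members tested, at -2.22 (SE 0.17), -2.07 (SE 0.19) and -4.11 (SE 0.31), and 33.4% of all genes were called, 10% as higher and 23.4% as lower. The factors themselves were 2.0 and 1.88 for nipnip2 and 0.532 and 0.499 for wt. Scaled to library totals, which moved the median of all genes to 2.09, mir-260 stood at -0.29 (adjusted p = 0.114, edgeR), mir-8199 at -0.16 (adjusted p = 0.425) and mir-262 at -2.20 (adjusted p = 7.02e-10). Scaled to snRNA genes, a choice made after the data were seen, mir-260 stood at -0.07, mir-8199 at 0.09 and mir-262 at -1.95. A lower level of mir-262 in the nipnip2 IP was thus called under each of these scalings. Among them, one of mir-260 and mir-8199 was called with TMM factors only. RLE scaling, which also centres the typical gene, and DESeq2 each gave the same 3 lower calls as TMM factors. With totals or snRNA genes 4 members were higher and 1 lower. With totals 2027 of all 2619 genes tested were higher and 149 lower, and with snRNA genes the median of all genes stood at 2.31.

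**Figure D5:**
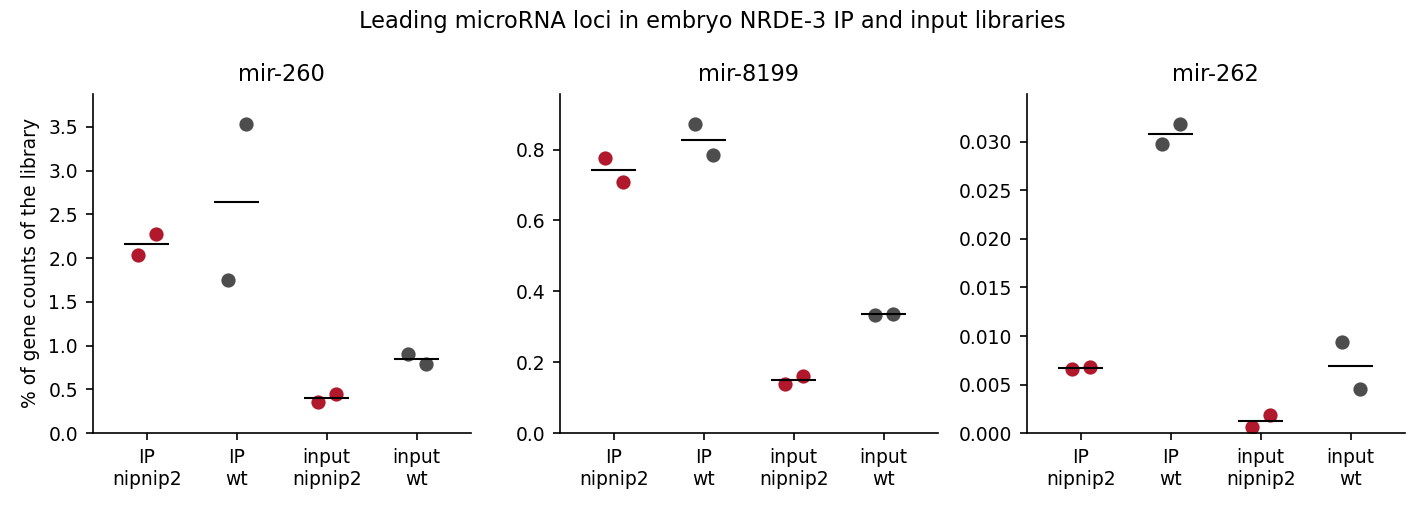
Share of each embryo library assigned to mir-260, mir-8199 and mir-262, in percent on axes from 0, with 1 point per library and a line at the mean for IP and input of nipnip2 and wt. All 3 are higher in the IP than in the input of the same genotype, and mir-262 is lower in nipnip2 than in wt in both.

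mir-260, mir-8199 and mir-262 were higher in the IP than in the input in both genotypes. In nipnip2 their log2 fold changes of IP over input were 6.26, 6.14 and 6.35 with TMM factors, 2.43, 2.31 and 2.53 with library totals and 5.40, 5.26 and 5.41 with snRNA genes as the scale. In wt they were 6.71, 6.36 and 7.20 with TMM factors, 1.64, 1.30 and 2.15 with library totals and 4.06, 3.70 and 4.43 with snRNA genes. By library totals the median of all genes stood at -4.07 in nipnip2 and -5.44 in wt. All these values were called. Scaled to the summed member counts, which these loci dominate, none of them was called in either genotype. On that scale mir-260, mir-8199 and mir-262 stood at 0.29, 0.17 and 0.39 in nipnip2 and at 0.15, -0.05 and 0.79 in wt. In all, 6 members were higher and 8 lower in the IP than in the input of nipnip2, and 5 higher and 6 lower in wt, of 25 tested, with 30.5% of all genes called in nipnip2, 15.8% as higher and 14.7% as lower, and 24.5% in wt, 11.7% as higher and 12.8% as lower. By library totals 3 members were higher and 21 lower in nipnip2, and 3 higher and 20 lower in wt, where of all 9248 genes tested 245 were higher and 8586 lower in nipnip2 and 190 higher and 8809 lower in wt.

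Members other than mir-260, mir-8199 and mir-262 were scarce in the IP, among them mir-58a, which led in adults. mir-58a had 5 and 2 counts in the IP of nipnip2 and 5 and 6 in that of wt, against 194 and 227 counts in the input of nipnip2 and 122 and 162 in that of wt. mir-87 had 13 and 18 counts in the IP of nipnip2 and 15 and 9 in that of wt, against 414 and 657 in the input of nipnip2 and 995 and 630 in that of wt. Its log2 fold change of IP over input was -2.54 in nipnip2 and -2.31 in wt with TMM factors, and -6.34 and -7.34 with library totals. The gene F10C2.11 at the same place had the same counts as mir-87, so reads of the 2 cannot be told apart. mir-73 was also lower in the IP with TMM factors, by -3.80 in nipnip2 and -3.09 in wt. With 1 library left out these values ranged from -7.91 to -3.00 and from -8.26 to -2.02. The whole mir-72 family, which holds mir-73, had 5 and 5 counts in the IP of nipnip2 and 2 and 1 in that of wt.

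For the remaining higher calls of the IP the direction depended on the scale. mir-54 stood at 4.39 in nipnip2 and 3.50 in wt with TMM factors, at 0.59 and -1.44 with library totals, and at 3.42 (adjusted p = 0.000163, edgeR) and 0.94 with snRNA genes. These values rest on few reads. The whole mir-51 family, which holds mir-54, had 24 and 12 counts in the IP of nipnip2 and 5 and 8 in that of wt. In the input the family had 7 and 14 counts in nipnip2 and 11 and 11 in wt. mir-5545 stood at 2.19 in nipnip2 and 4.67 in wt with TMM factors and at -1.63 and -0.28 with library totals, and mir-80 in nipnip2 at 1.12 and -2.71. With snRNA genes mir-5545 stood at 1.28 in nipnip2 and 2.15 in wt, the second of them called, and mir-80 in nipnip2 at 0.22.

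The difference between genotypes in the ratio of IP to input was called for 0 of 25 members by edgeR, with 3 at an unadjusted p under 0.05, and for 0 by DESeq2, against 0.876% of all genes called by edgeR, 0.0541% as higher and 0.822% as lower.

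Of the 16 members on the tissue list, 9 were at 0 in every input library and 12 in every IP library of the early embryos, against 148 and 179 of all 241 members. mir-228 had 163 counts over the 4 inputs and 10 over the 4 IP libraries, and mir-90 had 180 and 10, with counts of both in every input. The intestinal mir-60 had 0 counts in the inputs and 5 summed over the IP libraries, and lsy-6 had 0 in both. Of the pathway genes, ebax-1 had a higher small RNA level in nipnip2 than in wt input, at 1.67 (adjusted p = 0.0231, edgeR), and was the only 1 of 16 called there.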

How the data were processed

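Small RNA reads were trimmed with cutadapt, aligned with STAR to ce11 and counted with featureCounts, and DESeq2 was used, per the submitters' processing notes, without versions. The deposited embryo tables hold counts per gene. The deposited adult table holds estimated counts with fractions, which were rounded before testing. A symbol was found for 28876 adult features (of 31003) and 43720 embryo features (of 46740), and 1 embryo entry that names no gene was left out.

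Adult libraries were fitted together, embryo input and IP apart for genotypes and together for IP against input, with edgeR 4.0.16 (quasi-likelihood, filterByExpr, TMM, Benjamini-Hochberg, called under 0.05) in R 4.3.3. DESeq2 1.42.0, other scalings, no filter, other fits, blocks and left-out libraries were alternatives. Scaling to snRNA genes or to the other members, and leaving out replicate 1 of both mutants, were added after the data were seen. The test was checked on simulated data. Embryo columns carry no labelled replicate. The mutant columns in both fractions are headed nip1nip1_1 and nip1nip2_2. Both were taken as nipnip2, the only mutant label of the embryo samples, although the first header does not spell that genotype. Members and lists were chosen with earlier results of these data known. Members named were the 15 most abundant per table, the 8 largest called changes per direction at a mean of at least 20 counts, mir-260, mir-8199, family and tissue lists, and pathway genes. Normalised CPM were computed here. Repeat-family and RNA-seq tables were not used here, nor were the microRNAs left out of the rule.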

Additional observations from a re-analysis of the deposited data

Results flagged for a closer look

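In 8 members the effects in the adult mutants lay on opposite sides of wt, at least 1 of them was called against wt, and nip2nip3 and nip3_qe17 differed from each other in edgeR's test of that difference. The log2 difference of nip2nip3 minus nip3_qe17 was 2.54 for mir-798, 1.27 for mir-83, 1.17 for mir-788, 1.1 for mir-239a, 1.03 for mir-49, 0.85 for mir-63 and 0.62 for mir-253, and it was -1.67 for mir-8211. mir-63 had 678, 548 and 522 CPM in nip2nip3, 402, 330 and 241 in nip3_qe17, and 494 and 461 in wt. mir-788 had 13.6, 15.2 and 11.6 CPM in nip2nip3, 7.86, 3.68 and 6.75 in nip3_qe17, and 6.12 and 7.94 in wt. mir-8211, named after its values were seen, had 1.12, 0.87 and 0.71 CPM in nip2nip3, 2.79, 3.02 and 2.65 in nip3_qe17, and 0.77 and 1.17 in wt. In fits without 1 library the difference between the mutants was called in 6 of 6 for mir-798 and mir-49 and in 5 of 6 for mir-239a. It was called in 2 of 6 for mir-63 and mir-788 and in 1 of 6 for mir-83. mir-253 and mir-8211 were not among the members followed through such fits. The groups held 2 or 3 libraries each, too few for a test of whether a single library stood apart.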

How the results depend on the processing

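Members called in nip2nip3 against wt numbered 53, and 23 with library totals, 20 scaled to summed member counts and 29 to 57 with 1 library left out (29 without wt 1, 34 without wt 3, 35 without nip2nip3 2). In nip3_qe17 they numbered 37, and 22 to 40 with 1 library left out (22 without wt 1, 24 without nip3_qe17 3). Between the mutants 15 became 5 to 13 (5 without nip2nip3 2 or nip3_qe17 3, 7 without nip2nip3 3, 8 without nip2nip3 1). In the embryo input 3 (all lower) became 5 with totals (2 higher, 3 lower), 17 with member counts (16 higher, 1 lower), 0 scaled to the other members, and 3 to 7 with 1 library left out (7 without the second nipnip2 library, 5 without the second of wt). In the IP 3 (all lower) became 5 with totals or snRNA genes (4 higher and 1 lower with each), 7 with no filter and 3 to 7 with 1 library left out. For IP over input in nipnip2, 14 became 9 with DESeq2, 24 with totals, 22 with member counts and 9 to 17 with 1 library left out. In wt, 11 became 23 with totals or snRNA genes, 21 with member counts, 20 with no filter and 9 to 16 with 1 library left out. The difference between genotypes gave 2 with totals and 0 to 1 with 1 library left out. With 1 library of a group left, that library is assumed to vary like the other groups. Over all genes, 1458 were higher and 290 lower in the embryo input with totals, and 7018 higher and 115 lower with member counts. In the IP 2027 were higher and 149 lower with totals. For IP over input with member counts, 15 were higher and 9019 lower in nipnip2, and 12 higher and 8997 lower in wt. The difference between genotypes with totals was higher for 1648 and lower for 9. Signs turned in 16 of 1231 single results, and 273 others kept the sign but were not called. With totals 38 of 99 kept the sign but were not called and 4 turned, and with member counts 45 and 11. Scaled to member counts, mir-34 stood at -0.0266 and mir-47 at -0.0473 in nip2nip3, mir-86 at -0.035 in nip3_qe17, and mir-260 at 0.00879 and mir-8199 at 0.00802 in the IP of nipnip2 over wt. For IP over input on that scale, mir-80 stood at -4.84, mir-54 at -1.57 and mir-5545 at -3.79 in nipnip2, and mir-8199 at -0.0508, mir-54 at -2.86 and mir-5545 at -1.69 in wt. With totals mir-80 stood at -2.71 and mir-5545 at -1.63 in nipnip2, and mir-54 at -1.44 and mir-5545 at -0.28 in wt. With snRNA genes mir-8199 stood at 0.0853 in the IP of nipnip2 over wt. The cause was not tested. Deviations of same-numbered adult libraries from their group means correlated at r from -0.005 to 0.21, and those of differently numbered ones at -0.21 to 0.11. With so few libraries per group this cannot settle whether same-numbered libraries belong together. The replicate block gave 51, 40 and 19 calls for the adult comparisons. The column name as a block gave 13 for IP over input in nipnip2 and 10 in wt. Members at a few counts are limited by depth in the embryo libraries.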

Other observations

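mir-8191 (chromosome IV, 5022928 to 5022995, over the coding gene C09B9.85), chosen after its values were seen, had estimated counts of 4.17, 17.2 and 24.7 in nip2nip3, 11.7, 24.6 and 16.9 in nip3_qe17, and 0.1 and 0 in wt. Against a limit of 3 counts over both wt libraries, its mean share of counts was 8.38-fold higher in nip2nip3 and 8.85-fold higher in nip3_qe17. These ratios leave out the spread between the mutant libraries. mir-792, also chosen after its values were seen, had 22, 15 and 12 counts in nip2nip3, 3, 7 and 2 in nip3_qe17, and 11 and 8 in wt, a log2 difference between the mutants of 2.29 (SE 0.56, adjusted p = 0.0482, edgeR).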
